A study of Homo sapiens with 3 samples.

Results

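The nuclear genes for the subunits of respiratory complexes I, II, III and IV were described in 3 bulk RNA libraries of RWPE1 cells. Members were taken by gene symbol from the protein-coding rows of the count table: NDUFA, NDUFB, NDUFC, NDUFS or NDUFV with a number, NDUFAB1, SDHA to SDHD, every UQCR symbol, CYC1, and 11 named COX genes. The rule found 63 of the 58037 genes in the table, of which 38 belong to complex I, 4 to complex II, 10 to complex III and 11 to complex IV. RWPE1 is an immortalised line of normal adult human prostate epithelium. The labels give the genotypes as OLFM4-wild type, OLFM4-Knock out and OLFM4-active, with no treatment and no time point. The study's methods describe a pair of stable, puromycin-selected GFP reporter clones of these cells. The clone called OLFM4-wild was made with CRISPR activation plasmids for OLFM4 and the OLFM4-knockout clone with double-nickase plasmids, and RNA is stated to come from cells sorted by GFP. Which of the libraries labelled OLFM4-wild and OLFM4-active came from the reporter clone made with activation plasmids is not stated there. There was 1 library per group, so every difference below is one between libraries, and no test between conditions could be made.

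The respiratory chain passes electrons from NADH, which enters at complex I, and from succinate, which enters at complex II, through coenzyme Q to complex III, then through cytochrome c to complex IV, where oxygen is reduced. Complexes I, III and IV pump protons across the inner mitochondrial membrane and drive ATP synthase. Complex II is encoded wholly in the nucleus, whereas the other complexes also hold subunits made from the mitochondrial genome, so nuclear and mitochondrial products must be joined by assembly factors. OLFM4 is a secreted olfactomedin glycoprotein, and NDUFA13 (GRIM-19), a complex I subunit, has been reported elsewhere to bind it.

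The libraries held 16309906 counts (OLFM4-wild), 58837147 counts (OLFM4-knockout) and 23224216 counts (labelled OLFM4-active). OLFM4 itself had 214, 131 and 16 counts in that order, or 11.8, 2.55 and 0.670 CPM, which are counts scaled to a common library size. The library labelled OLFM4-active was thus lowest and went against its label. Values of the 3 libraries are given below in the order wild, knockout and active-labelled, and a comparison such as OLFM4-knockout over OLFM4-wild is the log2 fold change of the first library relative to the second. All 6 basal epithelial markers were detected, KRT5 with 222265, 1389973 and 326988 counts, and their summed level was 18750.5, 41146 and 22727 CPM. Luminal markers summed to 461, 424 and 306 CPM, with KLK3 at 2 counts or fewer in each library, and the fibroblast, leukocyte, endothelial, muscle and neuroendocrine lists each stayed under 40 CPM. The part of the higher basal marker level in the results below was not tested. In bulk RNA, more cells of a type and more RNA per cell cannot be told apart. Mitochondrial DNA has 13 protein-coding rows in the table, each listed at 0, so no subunit encoded there was measured. Of the 63 members, 63 passed the filter, a mean over the libraries of 1 CPM or more.

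Respiratory chain genes were mostly higher in the OLFM4-knockout library than in the OLFM4-wild library. Values are log2 fold changes of counts scaled by TMM factors, which set the library sizes so that most genes show little difference. Of 63 members, 61 lay above 0 and 52 above 0.5 on this scale, against 56.7% and 23.6% of the 16600 genes that passed the filter. The median of the members was 0.75, with quartiles of 0.58 and 0.87, and the median of all these genes was 0.10. The lowest member was SDHC at -0.52 and the highest was NDUFB3 at 1.04. The 95% counting interval lay wholly above 0 for 61 members and wholly below 0 for the other 2, SDHC among them, against 42.4% and 29.8% of all genes. These intervals cover counting error only.

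How many members counted as higher depended on the scaling. With library totals the members' median was 0.40 with 56 above 0, when 32.5% of all genes were above 0. With TPM, which divides counts by exon length and by the sum of those values over all genes, it was 0.078 with 41 above 0, or 65.1% of members, when 15.1% of all genes were. TPM taken over protein-coding genes alone gave 0.38 with 56 above 0. Library totals moved every log2 fold change by -0.35 from its TMM value in this comparison, by -0.11 for OLFM4-active-labelled over OLFM4-wild and by -0.24 in OLFM4-knockout over OLFM4-active-labelled. The shifts with TPM over all genes were -0.67, -0.08 and -0.60, and upper quartile factors moved the last comparison by -0.10. The members' median stood 0.65 above the median of all genes, with 61 members above it, and since a scaling moves every gene alike, this distance is the same for each scaling by construction. By complex, the distance was 0.62 for complex I, 0.43 for complex II, 0.67 for complex III and 0.73 for complex IV.

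**Figure D1:**
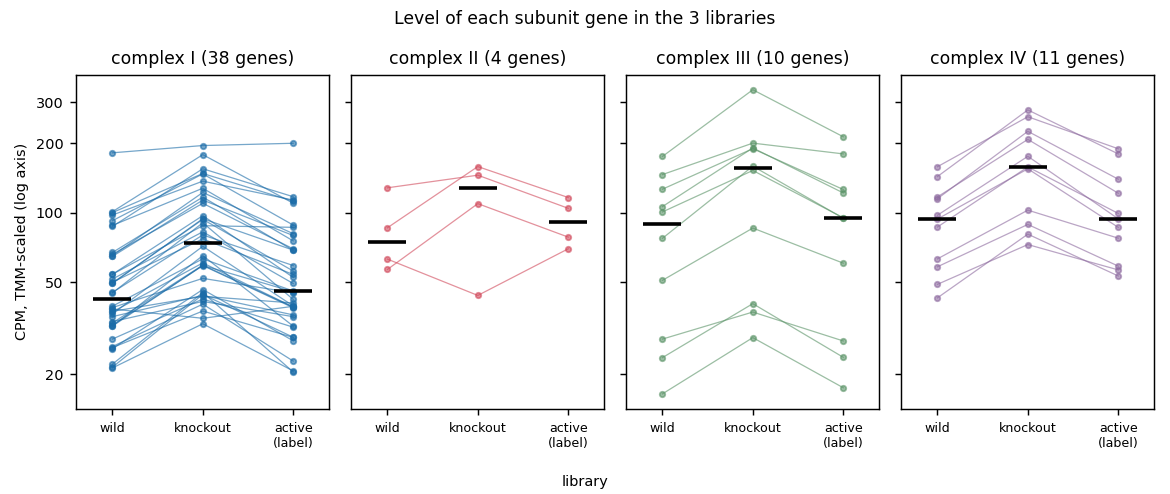
Level of each of the 63 subunit genes in the 3 libraries, by complex, in TMM-scaled CPM on a log axis, with 1 line per gene and black bars for the median of the complex. Most lines peak in the OLFM4-knockout library, and the line that falls there in complex II is SDHC.

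The nuclear core subunits of complex I, which carry the flavin and iron-sulphur clusters that take electrons from NADH, had a median of 0.81 in OLFM4-knockout over OLFM4-wild. NDUFV1, which binds NADH and the flavin, had 1834, 9145 and 2625 counts, which gave 0.82 (95% interval 0.75 to 0.89) in OLFM4-knockout over OLFM4-wild. Its iron-sulphur partner NDUFV2 had 1175, 5817 and 1903 counts, a log2 fold change of 0.81. Both were highest in the OLFM4-knockout library with TMM scaling. In TPM, NDUFV2 had 47.6, 52.3 and 55.6 and was highest in the library labelled OLFM4-active. Among the subunits of the arm that hands electrons to coenzyme Q, NDUFS7 had 0.97, NDUFS3 had 0.83 and NDUFS8 had 0.73 in the same comparison.

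NDUFS1, the largest iron-sulphur subunit, lay well below these values. It had 181, 195 and 200 CPM, and its log2 fold change of 0.10 (0.05 to 0.16) became -0.25 with library totals. Ratios of counts within a library do not depend on any scaling. NDUFS1 counts per 100 NDUFV1 counts were 180 (170 to 190), 110 (106 to 113) and 182 (173 to 191), so this ratio was lower in the OLFM4-knockout library alone. The canonical transcript of NDUFS1, of 11660 bases, is the longest of the members, and that of NDUFV1 has 1560. The part of transcript length in this ratio was not tested. Of the core subunits above, NDUFS3 and NDUFV2 share exons on the same strand with other genes, which held 94.8% and 96.9% of their counts in the first library, PTPMT1 in the case of NDUFS3. NDUFS1 and NDUFV1 also overlap genes on the same strand, which held 3.06% and 0.0% of their counts there.

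All 31 supernumerary subunits of complex I, which surround the core and support its assembly and stability, were above 0 in OLFM4-knockout over OLFM4-wild. Of these, 26 were above 0.5 and the median was 0.70. For all genes the shares above 0 and 0.5 were 56.7% and 23.6%. With library totals 28 were above 0, against 32.5% of all genes, and with TPM 19, against 15.1%. The highest were NDUFB3 at 1.04, NDUFA2 at 1.03 and NDUFA1 at 1.01. NDUFB3, in the membrane arm, had 390, 2273 and 691 counts, lowest in wild cells and highest in knockout cells. NDUFA2, a small matrix-side subunit, had 402, 2317 and 489 counts and was thus high in the OLFM4-knockout library only. The lowest supernumerary subunit was NDUFA6 at 0.22, which was -0.14 with library totals, under which NDUFA8 and NDUFV3 were also below 0, at -0.06 and -0.05. The 5 supernumerary subunits that did not pass 0.5 were NDUFA6, NDUFA8 at 0.29, NDUFV3 at 0.31, NDUFA5 at 0.42 and NDUFA10 at 0.49. Their canonical transcripts have 1072, 804, 5725, 5496 and 4855 bases in that order, against a median of 763 for the members. The part of transcript length in these values, and in those of the symbol families, was not tested. By symbol family, all 11 NDUFB genes, most of them of the membrane arm, were above 0.5 with TMM scaling and had a median of 0.83, while 9 of 13 NDUFA genes were, with a median of 0.62. NDUFA4, which the symbol places in complex I although the protein is now assigned to complex IV, had 1222, 5994 and 1642 counts and a log2 fold change of 0.80.

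NDUFA13 (chr19:19515736-19529054, GRCh38) was neither the highest nor the lowest of its complex. It had 1677, 7551 and 2111 counts, or 92.3, 147 and 88.4 CPM, so it was highest in the knockout cells with TMM scaling. In TPM it had 67.9, 68.0 and 61.7, so its levels in the wild and knockout cells were then alike. Its log2 fold change was 0.67 (0.60 to 0.75) in OLFM4-knockout over OLFM4-wild, close to the median of complex I of 0.72, and -0.06 (-0.16 to 0.03) in OLFM4-active-labelled over OLFM4-wild. Relative to 100 counts of NDUFA12, another accessory subunit of complex I, it had 184, 191 and 164 counts, with intervals of 170 to 200.2, 184 to 199 and 153 to 175, of which the first overlapped both others. Annotated genes that share exons with NDUFA13 on the same strand, YJEFN3 among them, held 1690, 7511 and 2127 counts, so its own reads and theirs cannot be told apart. Similar counts of a member and an overlapping gene were found for NDUFA7 and NDUFA11, at 104% and 90.6% in the first library. How the authors' counting treated reads over shared exons is not given in the sources used here, so such a read may stand in more than one row. The 250 bases before the RefSeq start of NDUFA13, on the plus strand at chr19:19515975-19516224 of GRCh38.p14, are shown because this subunit is the reported partner of OLFM4, with a match to the ETS letters CCGGAAGT in capitals at -10:
NDUFA13: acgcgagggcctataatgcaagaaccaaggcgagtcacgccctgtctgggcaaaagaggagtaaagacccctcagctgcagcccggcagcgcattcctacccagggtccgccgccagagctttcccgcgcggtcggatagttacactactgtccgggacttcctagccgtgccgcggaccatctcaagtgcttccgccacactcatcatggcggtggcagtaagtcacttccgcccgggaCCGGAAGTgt

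Complex II, succinate dehydrogenase, had the widest range of values of any complex in OLFM4-knockout over OLFM4-wild, around a median of 0.53 with 3 of 4 members above 0. The median was 0.18 with library totals, 0.18 without SDHD, which overlaps another gene, and -0.14 with TPM, with 2 of 4 above 0 under both scalings. Above 0 were 56.7% of all genes with TMM, 32.5% with library totals and 15.1% with TPM. SDHB, its iron-sulphur subunit, had 1563, 8122 and 2778 counts, which gave 0.88 (0.80 to 0.96) in OLFM4-knockout over OLFM4-wild. SDHD, which anchors the enzyme in the membrane, had 1032, 5615 and 1873 counts and a log2 fold change of 0.94 (0.85 to 1.04). SDHC (ENSG00000143252, chr1:161314381-161363206, GRCh38), the other membrane anchor, had 1144, 2251 and 1667 counts and a log2 fold change of -0.52 (-0.63 to -0.42). SDHB and SDHD were thus highest in the OLFM4-knockout library under TMM scaling, and SDHC was lowest there. In TPM, SDHB had 70.1, 81.0 and 89.9 and SDHD had 40.6, 49.1 and 53.1. Both were then highest in the library labelled OLFM4-active. SDHC had 66.0, 28.8 and 69.4 TPM and was again lowest in the OLFM4-knockout library. SDHC and SDHD together hold the heme of the enzyme. SDHA, the flavin subunit that oxidises succinate, had 2327, 7454 and 2495 counts, or 128, 145 and 104 CPM, and a log2 fold change of 0.18 (0.11 to 0.25) that was -0.17 with library totals. The value of SDHC was -0.87 with library totals and negative under each scaling tried, and a log2 fold change below -0.5 was found for 18.6% of all genes.

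Within each library, the ratio of SDHD to SDHB hardly varied, with 66.0 (61.0 to 71.5), 69.1 (66.8 to 71.5) and 67.4 (63.6 to 71.5) SDHD counts per 100 SDHB counts in the 3 libraries. The ratio of SDHC to SDHB was 73.2 (67.8 to 79.0), 27.7 (26.4 to 29.0) and 60.0 (56.4 to 63.8), lowest in the OLFM4-knockout library by a factor larger than the counting intervals. SDHA behaved otherwise, with 149 (140 to 159) counts per 100 SDHB counts in wild cells against 91.8 (88.9 to 94.7) and 89.8 (85.1 to 94.8) in the others. SDHA was the only member whose pseudogene rows summed to at least 10% of its own count. SDHAP1, SDHAP2, SDHAP3 and SDHAP4 together held 589, 1639 and 629 counts, or 25.3%, 22.0% and 25.2% of SDHA, so reads of SDHA that match them may be missing. An overlapping gene on the same strand held 241, 1571 and 376 counts beside SDHD.

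The sequences before SDHA and SDHD are shown because these sister subunits differed in the comparison while both hold letters of NRF1, a factor known for nuclear respiratory genes. RefSeq promoters of GRCh38.p14 give chr5:218070-218319 for SDHA and chr11:112086623-112086872 for SDHD, both on the plus strand and each ending at the base before the start. Capitals mark NRF1 letters (GCGCA, any base, GCGC), found 4 times before SDHA at -166, -117, -68 and -19 and once before SDHD at -110, and ETS letters (CCGGAAGT on the other strand) before SDHD at -78:
SDHA: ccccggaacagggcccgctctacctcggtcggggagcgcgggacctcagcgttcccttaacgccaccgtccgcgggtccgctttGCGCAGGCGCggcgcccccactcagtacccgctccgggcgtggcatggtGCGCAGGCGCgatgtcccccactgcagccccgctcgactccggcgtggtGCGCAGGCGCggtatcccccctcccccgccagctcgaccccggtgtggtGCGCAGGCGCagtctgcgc
SDHD: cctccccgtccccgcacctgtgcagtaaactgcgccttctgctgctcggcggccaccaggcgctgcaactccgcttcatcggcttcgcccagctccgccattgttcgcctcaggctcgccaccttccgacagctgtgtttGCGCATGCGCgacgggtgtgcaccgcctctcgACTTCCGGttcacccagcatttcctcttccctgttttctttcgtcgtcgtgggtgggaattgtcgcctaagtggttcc

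**Figure D2:**
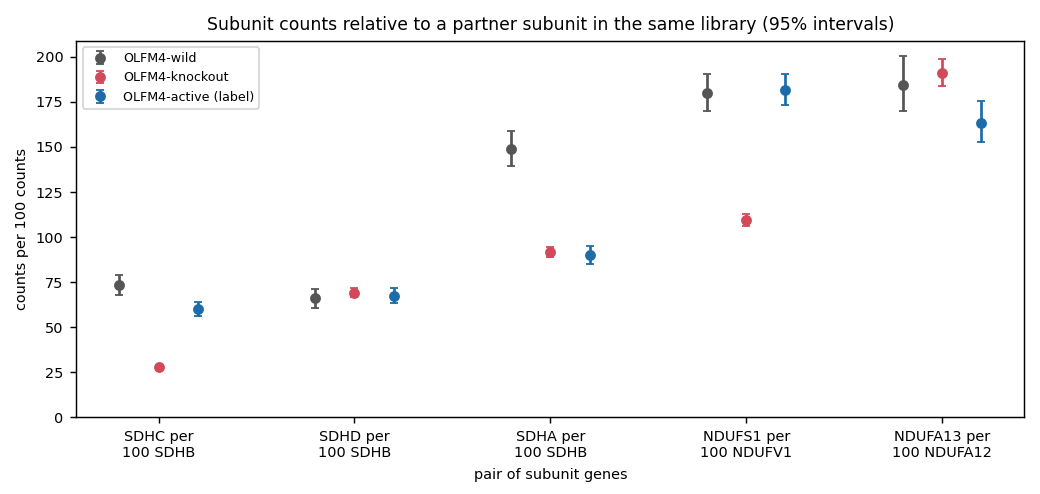
Counts of a subunit per 100 counts of a partner subunit in the same library, with 95% counting intervals, for 5 pairs of genes in the 3 libraries. SDHC per 100 SDHB drops to 27.7 and NDUFS1 per 100 NDUFV1 to 110 in the OLFM4-knockout library, while SDHD per 100 SDHB stays between 66.0 and 69.1 in all 3.

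All 10 members of complex III were higher in the OLFM4-knockout than in the OLFM4-wild library, against 56.7% of all genes. By more than 0.5, 8 were higher, against 23.6%, and the median log2 fold change was 0.76. With library totals 10 were above 0, against 32.5% of all genes, and with TPM 6, against 15.1%. CYC1, which encodes cytochrome c1 and passes electrons to cytochrome c, was the most abundant by CPM and had 175, 340 and 213 CPM. Its log2 fold change was 0.96 (0.90 to 1.01). UQCRFS1, the Rieske iron-sulphur protein, had 51.0, 85.8 and 60.5 CPM and a log2 fold change of 0.75. The 2 core proteins that frame the complex on the matrix side, UQCRC1 and UQCRC2, had lower values of 0.58 and 0.45.

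Of the small subunits of complex III, UQCRQ was the highest at 1.04 (0.95 to 1.12), from 1407 to 8155 counts, with 2260 in the library labelled OLFM4-active. UQCRH, the hinge protein that helps cytochrome c1 meet cytochrome c, had 0.84, UQCR10 had 0.77 and UQCRB had 0.60. UQCR11 was the lowest at 0.39 (0.25 to 0.53), and an overlapping gene on the same strand held more counts than UQCR11 itself, 834 against 516 in the OLFM4-wild library. UQCRHL is a near copy of UQCRH on the same chromosome. Its canonical transcript matched the UQCRH transcript at 272 of 276 bases, and it had 299, 1479 and 418 counts, or 15.5, 15.1 and 14.4 per 100 UQCRH counts. The level of UQCRHL is uncertain, since reads of the copies can be split.

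Complex IV, cytochrome c oxidase, had all 11 members above 0.5 in OLFM4-knockout over OLFM4-wild with TMM scaling, against 23.6% of all genes. With library totals 11 were above 0, against 32.5% of all genes, and with TPM 9, against 15.1%. The median with TMM scaling was 0.83, with the narrowest range of any complex, from 0.57 for COX7A2L to 0.97 for COX5B. COX4I1, which is part of the first assembly steps, had 158, 260 and 189 CPM and a log2 fold change of 0.72 (0.66 to 0.78). COX5B, a zinc-binding subunit on the matrix side, had 115, 225 and 140 CPM and 0.97 (0.90 to 1.04), while its neighbour COX5A had 0.70. COX7C had 143, 278 and 179 CPM and 0.96 (0.90 to 1.02). The other small membrane subunits had 0.91 (COX6C), 0.86 (COX8A), 0.85 (COX7B), 0.83 (COX6A1) and 0.61 (COX7A2), and COX6B1, on the intermembrane side, had 0.72. COX7A2L, which links complex III to complex IV in supercomplexes, was thus the lowest of the complex, with 890, 3736 and 1351 counts. COX6A1 and COX8A overlap other genes on the same strand that hold 74.7% and 45.0% of their counts in the OLFM4-wild library.

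**Figure D3:**
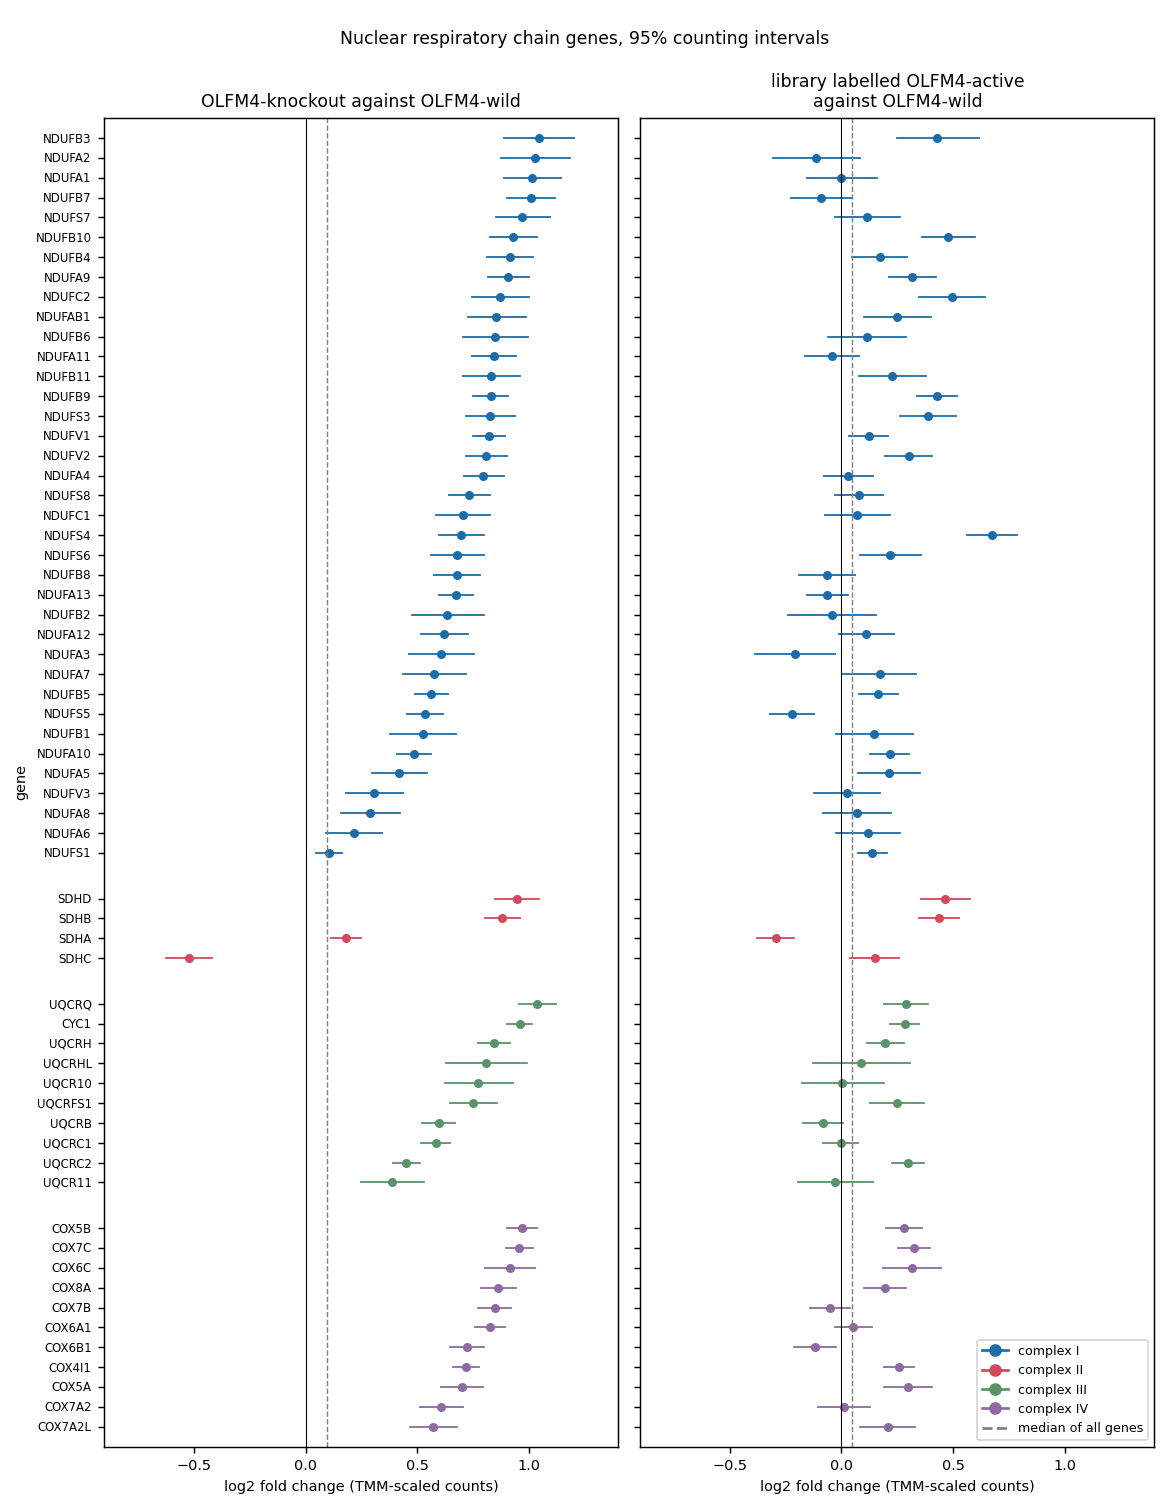
Log2 fold change of each subunit gene, 1 of them not shown, with its 95% counting interval and dashed lines for the median of all genes, sorted within complexes by OLFM4-knockout over OLFM4-wild (left), and the same genes in OLFM4-active-labelled over OLFM4-wild (right). On the left, 61 genes lie to the right of 0 and SDHC lies to the left, while on the right NDUFS4 alone lies above 0.5.

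Counts summed by complex gave the same order of complexes as the medians. In OLFM4-knockout over OLFM4-wild the summed counts had a log2 fold change of 0.82 (0.79 to 0.84) for complex IV, 0.74 (0.72 to 0.77) for complex III, 0.67 (0.65 to 0.69) for complex I and 0.45 (0.41 to 0.49) for complex II. With library totals these values were 0.46, 0.39, 0.32 and 0.10. Over all members the sum went from 76649 counts, or 4218 CPM, to 352982 counts, or 6876 CPM, with 112888 counts, or 4725 CPM, in the library labelled OLFM4-active. Complex IV took 24.3% (24.0 to 24.6) of the members' counts in the first library, 26.2% (26.1 to 26.4) in knockout cells and 24.4% (24.2 to 24.7) in that labelled OLFM4-active. Complex II took 7.91% (7.72 to 8.11), 6.64% (6.56 to 6.72) and 7.81% (7.65 to 7.96). Complex I took 47.6% (47.3 to 48.0), 46.5% (46.3 to 46.6) and 47.4% (47.2 to 47.7), and complex III took 20.2% (19.9 to 20.5), 20.7% (20.6 to 20.8) and 20.3% (20.1 to 20.5). These shares do not depend on scaling, and for each complex the share in the OLFM4-knockout library lay outside the counting intervals of the other libraries.

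Respiratory chain genes of the library labelled OLFM4-active lay much closer to those of the OLFM4-wild library with TMM scaling. The median log2 fold change was 0.15, against 0.05 for all genes, and 48 of 63 members were above 0, against 53.9% of all genes. With library totals the median was 0.031 and 35 members, or 55.6%, were above 0 when 44.1% of all genes were. With TPM the median was 0.070 and 40 members, or 63.5%, were above 0 when 47.5% of all genes were. The OLFM4-knockout library had 0.078 over OLFM4-wild with TPM and 41 members above 0, so neither library lay closer by that scaling. The members' median stood 0.10 from the median of all genes here and 0.65 in OLFM4-knockout over OLFM4-wild, whatever the scaling. In OLFM4-active-labelled over OLFM4-wild a single member, NDUFS4, was above 0.5 with TMM scaling, against 15.7% of all genes. NDUFS4 (ENSG00000164258), an accessory subunit next to the NADH-binding module, had 984, 4509 and 2064 counts, or 54.2, 87.8 and 86.4 CPM. With TMM scaling it was thus as high in the library labelled OLFM4-active as in the knockout cells. In TPM it had 92.0, 93.6 and 139, highest in the library labelled OLFM4-active. Its log2 fold change over OLFM4-wild in that library was 0.67 (0.56 to 0.78) with TMM and 0.56 with library totals.

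Below NDUFS4 in this comparison came NDUFC2 at 0.49 and NDUFB10 at 0.48, both of the membrane arm, and in complex II SDHD at 0.46 and SDHB at 0.43. SDHA was the lowest of all members at -0.29 (-0.38 to -0.21), and stayed negative under each scaling tried. The lowest of complex I were NDUFS5 at -0.22, NDUFA3 at -0.21 and NDUFA2 at -0.11. With TMM scaling complex I had 29 of 38 members above 0, complex II 3 of 4, complex III 7 of 10 and complex IV 9 of 11, against 53.9% of all genes. With library totals these counts were 20, 3, 5 and 7, against 44.1%, and with TPM 24, 3, 6 and 7, against 47.5%. The medians of complexes I to IV with TMM scaling were 0.12, 0.29, 0.14 and 0.21. In complex III the values ran from -0.08 for UQCRB to 0.30 for UQCRC2, and in complex IV from -0.12 for COX6B1 to 0.33 for COX7C. The log2 fold changes of the summed counts, 0.16, 0.14, 0.17 and 0.17 for complexes I to IV, had intervals that overlapped between complexes.

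Set directly against the library labelled OLFM4-active, the OLFM4-knockout library was higher for 60 of 63 members, against 56.7% of all genes, and by more than 0.5 for 38, against 18.6%. The median was 0.60, against 0.08 for all genes, 0.36 with library totals and 0.0043 with TPM, under which 33 members were above 0 when 13.5% of all genes were. NDUFA2 was the highest member at 1.14, followed in complex I by NDUFB7 at 1.10 and NDUFA1 at 1.01, and SDHC was the lowest at -0.67 (-0.76 to -0.58). NDUFS1 had -0.03, and NDUFS4 was among the lowest of complex I at 0.02, which was -0.21 with library totals. In complex III the values ran from 0.15 for UQCRC2, which was -0.08 with library totals, to 0.77 for UQCR10, and in complex IV from 0.36 for COX7A2L to 0.90 for COX7B. Ranking the 3 libraries for each gene with TMM scaling, the OLFM4-knockout library was highest for 60 of 63 members, against 41.9% of all genes. The order OLFM4-knockout, OLFM4-active-labelled, OLFM4-wild held for 46, against 26.5%. SDHC and NDUFS1 were among the exceptions to the first count. Among protein-coding genes with a canonical transcript under 1000 bases, the OLFM4-knockout library was highest for 71.5% and the full order held for 44.6%.

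Transcript length moved with the log2 fold change across all genes, and the respiratory chain genes are short. Over the 12795 protein-coding genes that passed the filter, the Spearman correlation of the log2 fold change with the length of the canonical transcript was -0.32 in OLFM4-knockout over OLFM4-wild, 0.03 in OLFM4-active-labelled over OLFM4-wild and -0.43 in OLFM4-knockout over OLFM4-active-labelled. Over the 63 members it was -0.30, 0.13 and -0.40. The points of each correlation are genes of the same libraries and not replicates. The members' median length was 763 bases, against 3291 for the protein-coding genes. Among protein-coding genes under 1000 bases, 77.1% were above 0 and 44.3% above 0.5 in OLFM4-knockout over OLFM4-wild, nearer to the members' counts than the shares over all genes. In OLFM4-knockout over OLFM4-active-labelled these shares of short genes were 86.9% and 43.5%.

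The members were also set beside other protein-coding genes of their own length, which were not matched to them by level. The 37 members under 1000 bases had a median of 0.81, with 37 above 0 and 36 above 0.5, and the other 848 protein-coding genes of that length had a median of 0.38. The 26 longer members had a median of 0.59 with 24 above 0. In the 6 length classes the members' medians ran from 0.45 to 0.83 and those of the other genes from -0.23 to 0.41. The members' median was the higher of the pair in each class. The classes held 9, 28, 13, 6, 4 and 3 members, from the shortest to the longest. The part of length in the members' values was not tested. SDHC, with a canonical transcript of 1308 bases, lay below the median of 0.34 of the other genes of its length class. NDUFS1, with 11660 bases and a log2 fold change of 0.10, lay above the median of -0.23 of the other genes of its class. The part of RNA quality or of library preparation in the relation with length was not tested.

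**Figure D4:**
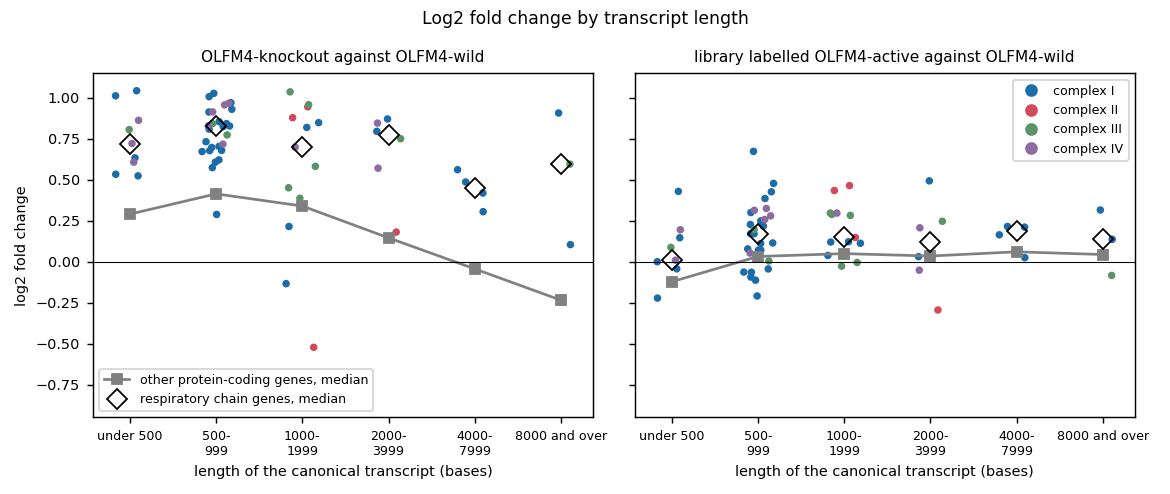
Log2 fold change against the length class of the canonical transcript, for the subunit genes (points, coloured by complex), their medians (diamonds) and the medians of the other protein-coding genes (grey squares), in both comparisons with wild cells. For the knockout cells the grey medians reach 0.41 in the second shortest class and -0.23 in the longest, and the diamonds stay above them, while in the other comparison both lie near 0.

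Levels per length, in TPM over the union of exons, put complex IV highest in each library. The median TPM was 94.9, 96.7 and 111 for complex IV, 55.9, 53.2 and 60.0 for complex III, 53.3, 38.9 and 61.2 for complex II and 29.8, 31.8 and 33.6 for complex I, in the 3 libraries. With the canonical transcript as the length the values were higher, 254, 315 and 255 for complex IV and 75.9, 89.0 and 84.2 for complex I, and complex IV was again the highest. By this measure COX7C was the most abundant member in each library, at 347, 439 and 411 TPM. The order of complexes II and III changed with the length used in the wild and active-labelled libraries, whereas complex III was the higher in the knockout library with each length.

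Genes around the respiratory chain gave the following values in OLFM4-knockout over OLFM4-wild. All 18 genes of ATP synthase were above 0 and 12 were above 0.5, against 56.7% and 23.6% of all genes, with a median log2 fold change of 0.65. With library totals 14 were above 0, against 32.5% of all genes, and with TPM 7, against 15.1%. Its highest member was ATP5MC3, a copy of the rotor subunit c, at 1.41 (59.1 to 157 CPM), and its lowest was ATP5IF1, the inhibitor of the enzyme, at 0.16. Of the assembly factors, 16 of 17 were above 0 for complex I (median 0.51), 3 of 4 for complex II (0.32), 6 of 6 for complex III (0.36) and 17 of 21 for complex IV (0.47), against 56.7% of all genes. With library totals these counts were 11, 1, 3 and 12, against 32.5% of all genes, and with TPM 5, 0, 1 and 5, against 15.1%. Complex I assembly factors ran from NDUFAF7, a methyltransferase, at -0.16 (-0.33 to 0.02) to NDUFAF8 at 1.61, and complex II factors from SDHAF4 at -0.01 to SDHAF2 at 0.46. Complex III factors ran from LYRM7 at 0.03 to UQCC3 at 0.92, and complex IV factors from CMC1 at -0.31 to COA6 at 0.99. In OLFM4-active-labelled over OLFM4-wild the complex II factors had a median of -0.41, with 1 of 4 above 0, against 53.9% of all genes.

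All 15 genes for electron carriers and coenzyme Q synthesis were above 0 in OLFM4-knockout over OLFM4-wild, from COQ8A at 0.18 to ETFB at 0.88, with a median of 0.41, but 10 were above 0 with library totals and 2 with TPM. All 11 genes of mitochondrial content and protein import were too, from CS, which encodes citrate synthase, at 0.23 to TOMM40, the import channel, at 1.38. Their median was 0.49, and these counts were 8 and 2. The shares of all genes above 0 were 56.7% with TMM, 32.5% with library totals and 15.1% with TPM. With TPM both lists were thus near the share of all genes. In OLFM4-active-labelled over OLFM4-wild the 11 genes of content and import had a median of 0.44 with 11 above 0. With library totals and with TPM 10 were above 0. All genes had shares of 53.9%, 44.1% and 47.5% there. The median of the subunit genes in that comparison was 0.15.

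Of 12 regulators of respiratory genes, 11 passed the filter, and 9 were above 0 in OLFM4-knockout over OLFM4-wild with a median of 0.48, whereas 8 were above 0 with library totals and 3 with TPM. The shares of all genes were 56.7%, 32.5% and 15.1%. The 3 highest were TFB2M, a mitochondrial transcription factor, at 1.43 (119 to 907 counts), the nuclear receptor ESRRA at 1.01 and MYC at 0.90. PPARGC1B, a coactivator, had 0.59, POLRMT, the mitochondrial RNA polymerase, had 0.56, NRF1 had 0.48, PPRC1 had 0.42, TFAM, which packs mitochondrial DNA, had 0.36 and GABPB1 had 0.34. YY1 had -0.03, with an interval that included 0, and GABPA had -0.12. PPARGC1A had 3, 0 and 2 counts, at or under the floor of 3 counts per library, so no fold is given.

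Beside the OLFM4-wild library, ESRRA and NRF1 had values of 0.02 and -0.11 in the library labelled OLFM4-active, whereas TFB2M had 1.62, PPRC1 0.93, PPARGC1B 0.90 and MYC 0.83. The remaining regulators had 0.35 (TFAM), 0.33 (GABPB1), 0.08 (YY1), 0.04 (POLRMT) and -0.04 (GABPA) there. With TMM scaling MYC was thus similar in the OLFM4-knockout and the OLFM4-active-labelled libraries, at 510.3 and 486 CPM against 274 CPM. Its log2 fold change in OLFM4-knockout over OLFM4-active-labelled was 0.07. Library totals and TPM move every value of that comparison by -0.24 and -0.60, so MYC was then lower in the OLFM4-knockout library. ESRRA was high in the OLFM4-knockout library alone, with 37.8, 76.1 and 38.4 CPM.

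The other isoforms of the subunits were low, and NDUFA4L2 alone passed the filter. COX4I2, COX6A2, COX7B2 and COX8C had 0 counts in each library, which allows up to 0.165, 0.0584 and 0.126 CPM. COX7A1 had 3, 13 and 13 counts. COX6B2 had 32, 18 and 19 counts, under the filter at 1.76, 0.351 and 0.795 CPM, a log2 fold change of -2.31 (-3.25 to -1.45) in OLFM4-knockout over OLFM4-wild, opposite to COX6B1. NDUFA4L2, a relative of NDUFA4 known from hypoxia, had 56, 97 and 50 counts and a log2 fold change of -0.71 (-1.19 to -0.20), also below its relative.

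**Figure D5:**
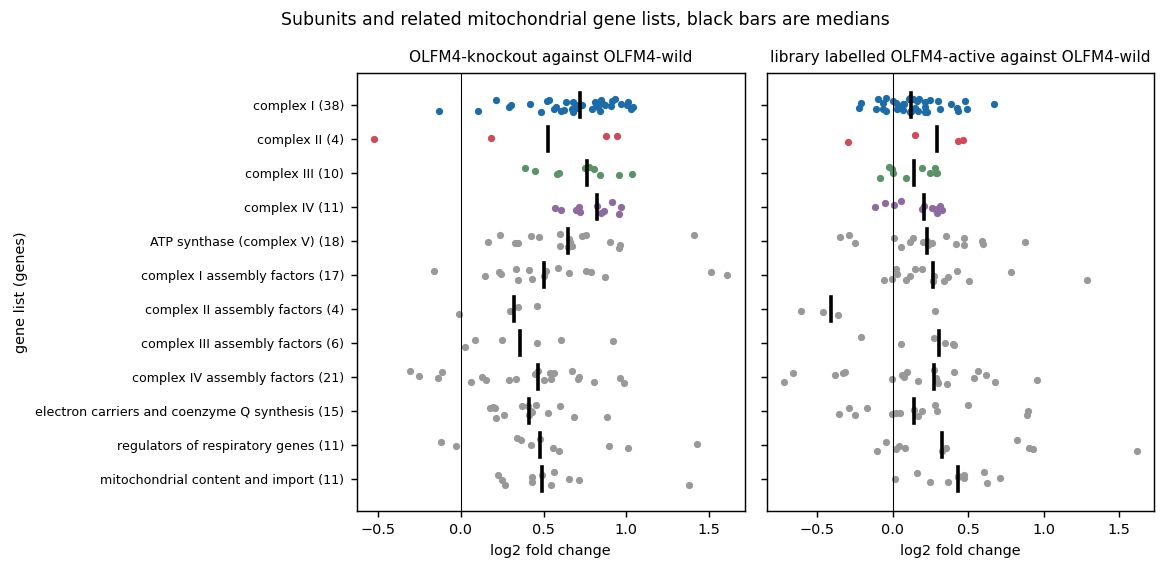
Log2 fold changes of the subunit genes by complex and of the related gene lists other than the isoforms (1 point per gene, black bars for medians, number of genes in brackets), for both comparisons with wild cells. For the knockout cells every plotted median with TMM scaling lies above 0, from 0.32 for complex II assembly factors to 0.83 for complex IV, and in the other comparison the complex II assembly factors have a median of -0.41.

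RefSeq promoters of 300 bases, 250 before to 50 after the start, were found for 52 of the 63 members. NRF1 letters occurred on either strand in 12 of them (23.1%), against 11.7% of 10268 expressed protein-coding genes. Of the 12, 6 belong to complex I, 2 to complex II, 4 to complex III and none to complex IV. ETS letters (CCGGAAGT) occurred in 15.4% against 8.99%, the YY1 letters (AAGATGG followed by CGG) in 11.5% against 2.86%, and the E-box CACGTG, the letters bound by MYC, in 7.69% against 10.2%. The median log2 fold change in OLFM4-knockout over OLFM4-wild was 0.69 for members with NRF1 letters and 0.77 for those without, and 0.85 and 0.73 for ETS letters. A match is a description of the sequence and not of binding. COX6C, CYC1, NDUFA4, NDUFB5, NDUFB9, NDUFC2, NDUFS5, SDHC, UQCRB and UQCRHL were among those with no entry.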

How the data were processed

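Bulk RNA of RWPE1 cells, stated to be sorted for GFP, was sequenced in 3 libraries, 1 per group, prepared from total RNA depleted of ribosomal RNA with a stranded kit. The deposited values are whole-number counts per gene without normalization. Per the study's methods and the submitters' processing notes, the authors aligned read pairs to GENCODE GRCh38 with HISAT2 and counted uniquely mapped, reversely stranded pairs with featureCounts, and cutadapt is also named. Unique mapping drops reads shared with pseudogenes, and of the 63 members 16 have exons that overlap another gene on the same strand.

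From the counts, TMM factors of edgeR 4.0.16 (1.11, 0.872 and 1.03 for wild, knockout and active-labelled cells) and log2 CPM as in limma 3.58.1 with an offset of 0.5 counts were computed in R 4.3.3. Python 3.11.15 (pandas 2.3.3, numpy 2.4.6, matplotlib 3.10.9, scipy 1.17.1) was used for summaries and plots. Symbols, gene types and lengths came from GENCODE release 44, which holds 56993 of the 58037 identifiers. Intervals are exact conditional Clopper-Pearson intervals at 95%, those on ratios and shares likewise. With 1 library per group no test was fitted, so the labels' groups were compared by description, against the genes whose mean was 1 CPM or more and at the sizes 0 and 0.5 on the log2 scale. The procedure was tested on simulated data drawn with counting error only, so variation between replicate libraries was not part of that test.

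The members and the 10 related lists were chosen with earlier results of these data known. Named genes are every member of complexes II, III and IV, the 7 core subunits of complex I, NDUFA13, NDUFA4, the 3 highest and 3 lowest of complex I in each comparison, the highest and lowest of each related list, every regulator and other isoform, markers, and members whose pseudogenes reach 10% of their count. NDUFA5, NDUFA7, NDUFA8, NDUFA10, NDUFA11, NDUFA12, NDUFV3, SDHAP1 to SDHAP4 and PTPMT1 were named after their values were seen, where the rule did not name them. Alternatives were library totals, DESeq2 1.42.0 size factors, upper quartile factors, TMM without the 10 most abundant genes, offsets of 1 and 5 counts, thinning to the shallowest library, NDUFA4 counted with complex IV, leaving out UQCRHL, a filter of 10 CPM, no filter, other backgrounds and other lengths. TPM as the scaling, the canonical length, and leaving out the 13 members overlapped by genes of at least 10% of their counts were chosen after seeing the data. Values of some genes are not reported here.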

Additional observations from a re-analysis of the deposited data

How the results depend on the processing

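With 1 library per group, leaving out a replicate was impossible, and depth limits only the counting intervals. No paired analysis was possible because each group has a single library and the labels carry no replicate numbers. Offsets of 1 and 5 counts, TMM without the 10 most abundant genes, NDUFA4 counted with complex IV, leaving out UQCRHL, a filter of 10 CPM and no filter moved no summary of the members beyond its interval or by over 1.5 times. The filter of 10 CPM moved the median of all genes, against which the members are set, from 0.10 to 0.17 in OLFM4-knockout over OLFM4-wild and from 0.05 to 0.10 in OLFM4-active-labelled over OLFM4-wild. Scaling mattered most, and the value of any one scaling was not tested against a known standard.

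With library totals, the medians in OLFM4-knockout over OLFM4-wild were 0.40 over all members and 0.37, 0.18, 0.41 and 0.47 for complexes I to IV, the summed counts gave 0.35, 0.32, 0.10, 0.39 and 0.46 in that order, and 18 members were above 0.5. In OLFM4-active-labelled over OLFM4-wild the medians of complexes II, III and IV were 0.18, 0.027 and 0.092 and the sums 0.049, 0.0433, 0.029, 0.057 and 0.058. In OLFM4-knockout over OLFM4-active-labelled the medians were 0.36, 0.36, 0.22, 0.42 and 0.39, the sums 0.30, 0.27, 0.070, 0.33 and 0.40, and 15 members were above 0.5.

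With upper quartile factors, OLFM4-knockout over OLFM4-wild gave medians of 0.67 and 0.74 for complexes III and IV and sums of 0.62, 0.58, 0.36, 0.65 and 0.73. OLFM4-active-labelled over OLFM4-wild gave a sum of 0.18 over all members and 2 members above 0.5. OLFM4-knockout over OLFM4-active-labelled gave medians of 0.50, 0.49, 0.35, 0.56 and 0.53 and sums of 0.44, 0.41, 0.20, 0.46 and 0.54. With DESeq2 size factors the sums over all members were 0.72, 0.19 and 0.53 in the 3 comparisons, complex I had 0.18 in the OLFM4-active-labelled comparison, and 3 members were above 0.5 there.

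Thinning each library to the shallowest gave sums of 0.67, 0.63, 0.71 and 0.77 for all members and complexes I, III and IV in OLFM4-knockout over OLFM4-wild, and 0.51, 0.48, 0.55 and 0.60 against the library labelled OLFM4-active.

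A further pair of alternatives was chosen after seeing the data. Without the 13 members overlapped by other genes, OLFM4-knockout over OLFM4-wild gave sums of 0.69 over all members, 0.64 for complex I and 0.33 for complex II, and medians of 0.18 and 0.72 for complexes II and IV. Complex II had a median of 0.15 and a sum of 0.068 in the OLFM4-active-labelled comparison, and against that library the OLFM4-knockout library had sums of 0.52, 0.48, 0.26 and 0.62 over all members and complexes I, II and IV. With TPM the medians in OLFM4-knockout over OLFM4-wild were 0.078, 0.046, -0.14, 0.090 and 0.15 with 0 members above 0.5, so that complex II changed sign, and against the library labelled OLFM4-active they were 0.0043, 0.0010, -0.14, 0.065 and 0.036 with 33 members above 0 and 2 above 0.5. TPM divides by the sum of counts per base over all genes.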

Other observations

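Pseudogene rows named after members were counted too. There were 136 of them, belonging to 37 members, and for 3 members they summed to at least 5% of the member's own count in a library: SDHA, COX6A1 (179, 812 and 233 counts, or 8.42%, 7.63% and 8.04%) and SDHD (39, 368 and 74 counts, or 3.78%, 6.55% and 3.95%). SDHAP4 was the highest of the SDHA copies with 308, 835 and 325 counts, and its own counts followed those of SDHA.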
